A study of Mus musculus with 8 samples.

Results

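Ahi1, Hap1 and Baiap3 are 3 protein-coding genes of neuronal trafficking that were followed here in RNA-sequencing counts of the developing ventral tegmental area (VTA). They are 3 of the 54735 genes in the count table, and they were chosen from their measured values in these same libraries, as abundant neuronal transcripts with more RNA in socially stressed than in control mice. Their difference between the groups is therefore given below as a description, with no test. The study asked what repeated early social stress does to the developing dopamine system. All 8 mice were of the DBA2/J strain and were labelled male and P21, while the methods of the study place the dissection 1 day after the last exposure. Socially stressed (SS) pups were exposed to a threatening adult male for 30 min per day between P14 and P21, and control (CTR) pups were left unhandled. RNA came from bilateral VTA punches and each mouse gave 1 library. Both groups held 4 mice, and a library is named by its group and label number, which are 1, 2, 3 and 5 for CTR and 2, 3, 4 and 5 for SS. A punch takes every cell type in its reach, the litter of each mouse is not in the labels, and the spread given below is therefore that between mice of unknown kinship.

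Huntingtin-associated protein 1, the product of Hap1, is an adaptor of neurons and endocrine cells that links huntingtin and vesicles to kinesin and dynactin for transport along microtubules. It is the main component of the stigmoid body, a cytoplasmic inclusion that is prominent in neurons of the hypothalamus, and it binds and stabilises jouberin, the product of Ahi1. Jouberin also sits at the base of the primary cilium, and loss of AHI1 in humans causes Joubert syndrome, a malformation of the midbrain and hindbrain. Baiap3 encodes a relative of the Munc13 proteins, the factors that prime vesicles for release, and it acts in the trafficking of dense-core vesicles, which store neuropeptides and hormones.

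The 3 genes lie on different chromosomes (positions from GENCODE M21 on GRCm38, which is mm10). Ahi1 (ENSMUSG00000019986.17) runs along the plus strand at chr10:20952547-21080429 with 7040 exonic bases, Hap1 (ENSMUSG00000006930.15) along the minus strand at chr11:100347327-100356128 with 3766, and Baiap3 (ENSMUSG00000047507.12) along the minus strand at chr17:25242659-25256364 with 5112. The 250 bases before each start site are shown because the 3 transcripts were chosen as differing together between the groups, and a reader can see there what their promoters share in letters. They are RefSeq sequences on GRCm38.p6, written 5′ to 3′ along the strand of the gene, with the last base next to the start site and with capitals marking matches to 7 short motifs that were searched on both strands.
Ahi1 promoter, chr10:20952297-20952546, plus strand: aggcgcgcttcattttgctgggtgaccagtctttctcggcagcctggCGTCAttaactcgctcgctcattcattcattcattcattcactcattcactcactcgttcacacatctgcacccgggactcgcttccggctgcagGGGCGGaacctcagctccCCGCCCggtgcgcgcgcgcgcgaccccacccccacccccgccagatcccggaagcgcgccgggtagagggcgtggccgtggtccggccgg
Hap1 promoter, chr11:100356129-100356378, minus strand: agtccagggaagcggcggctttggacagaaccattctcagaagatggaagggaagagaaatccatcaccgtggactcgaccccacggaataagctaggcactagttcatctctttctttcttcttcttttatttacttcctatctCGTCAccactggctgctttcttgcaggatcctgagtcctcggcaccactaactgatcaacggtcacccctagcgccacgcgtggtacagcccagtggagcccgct
Baiap3 promoter, chr17:25256365-25256614, minus strand: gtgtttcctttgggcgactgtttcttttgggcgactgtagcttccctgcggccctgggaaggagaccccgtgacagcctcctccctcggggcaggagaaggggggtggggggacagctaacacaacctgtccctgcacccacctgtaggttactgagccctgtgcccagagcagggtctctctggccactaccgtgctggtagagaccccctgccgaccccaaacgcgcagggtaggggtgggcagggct
The Ahi1 promoter held the GC box GGGCGG, bound by Sp1 family factors, beginning 108 bases before the start site and again, on the other strand, at 90 bases. It also held the cyclic AMP response half-site CGTCA at 203 bases. The Hap1 promoter held the same half-site at 105 bases and no GC box, and the Baiap3 promoter held none of the 7 motifs. Such matches are common, since 32.7% of all 32851 promoter windows of this length held the GC box and 17.8% held the half-site. The remaining 5 motifs had no match in the 3 windows, and among all windows CCAAT occurred in 33.8%, the TATA box TATAAA in 12.4%, the RFX half-site GTTGCC in 10.4%, the E-box CAGCTG in 13.0% and the glucocorticoid response half-site AGAACA in 16.1%. The motifs share no overlapping match here. Base composition differed among the 3 windows, with a GC content of 65.6% and 28 CpG dinucleotides for Ahi1, 52.8% and 12 for Hap1, and 64.4% and 9 for Baiap3, against medians of 52.4% and 6 over all windows. No motif was shared by the 3 promoters.

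Library totals ranged from 20036086 to 47319997 counts, and values are given as CPM, the count scaled to a common library size with TMM (per M counts). Several libraries stood apart. Among 1989 genes averaging 1 to 3 CPM, CTR-1 missed 434 and CTR-2 missed 354 entirely, while each of the remaining 6 libraries missed 1 to 94. CTR-5 and SS-5 held 14997 and 6551 counts of Xist, the RNA of the inactive X chromosome, and at most 3 counts in sum over Y-linked genes, whereas the remaining 6 libraries held at most 3 counts of Xist and 2293 to 7892 of Y-linked genes, so 2 libraries went against the label male. The summed level of 10 dopamine neuron markers, the cells that define the VTA, was 789 to 1760 CPM in CTR and 168 to 279 CPM in SS. Results for the members are given with and without these libraries. All 3 members were among the 16538 genes that passed the filter on low counts.

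All 3 transcripts were abundant in the VTA of both groups, and all had higher means in SS. Measured per kilobase of exon, their order was Hap1, Ahi1 and Baiap3 in each of the 8 libraries. The mean level was 161 CPM per kilobase in CTR and 206 in SS for Hap1, 91.0 and 120 for Ahi1, and 59.7 and 88.5 for Baiap3. By this measure Hap1 took place 148, Ahi1 place 322 and Baiap3 place 513 of 16455 genes with a length. The Baiap3 levels of SS and the Ahi1 levels of CTR covered much the same range per kilobase, so those neighbours in the order did not separate across groups.

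Ahi1, the jouberin gene, measured 583 CPM for CTR-1, 646 for CTR-2, 662 for CTR-3 and 672 for CTR-5. The stressed mice gave 895 CPM for SS-2, 925 for SS-3, 855 for SS-4 and 703 for SS-5. Every SS library lay above every CTR library, and SS-5 stood lower than its group, 30.8 CPM over the highest control. Controls averaged 641 ± 39.8 CPM and stressed mice 844 ± 98.6 CPM (SD, n = 4 each). The log2 fold change was 0.40 with an SE of 0.094, or 1.32-fold.

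Hap1, the transport adaptor gene, measured 690 CPM for CTR-1, 559 for CTR-2, 638 for CTR-3 and 533 for CTR-5. The stressed mice gave 818 CPM for SS-2, 832 for SS-3, 770 for SS-4 and 680 for SS-5. The groups overlapped, since SS-5 lay 9.75 CPM below CTR-1, the highest control. The CTR mean was 605 ± 72.1 CPM against 775 ± 68.6 CPM for SS (SD, n = 4 each), which corresponds to a log2 fold change of 0.36 with an SE of 0.0996, or 1.28-fold.

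Baiap3, the Munc13 relative, measured 355 CPM for CTR-1, 242 for CTR-2, 360 for CTR-3 and 264 for CTR-5. The stressed mice gave 468 CPM for SS-2, 453 for SS-3, 466 for SS-4 and 422 for SS-5. The groups did not overlap and were 62.0 CPM apart, with the controls falling into a higher and a lower pair and the SS libraries close together. From 305 ± 61.0 CPM in controls the mean went to 452 ± 21.5 CPM in stressed mice (SD, n = 4 each). The log2 fold change was 0.57 with an SE of 0.13, or 1.48-fold. Of the 3 members Baiap3 had the largest fold and the lowest level.

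**Figure D1:**
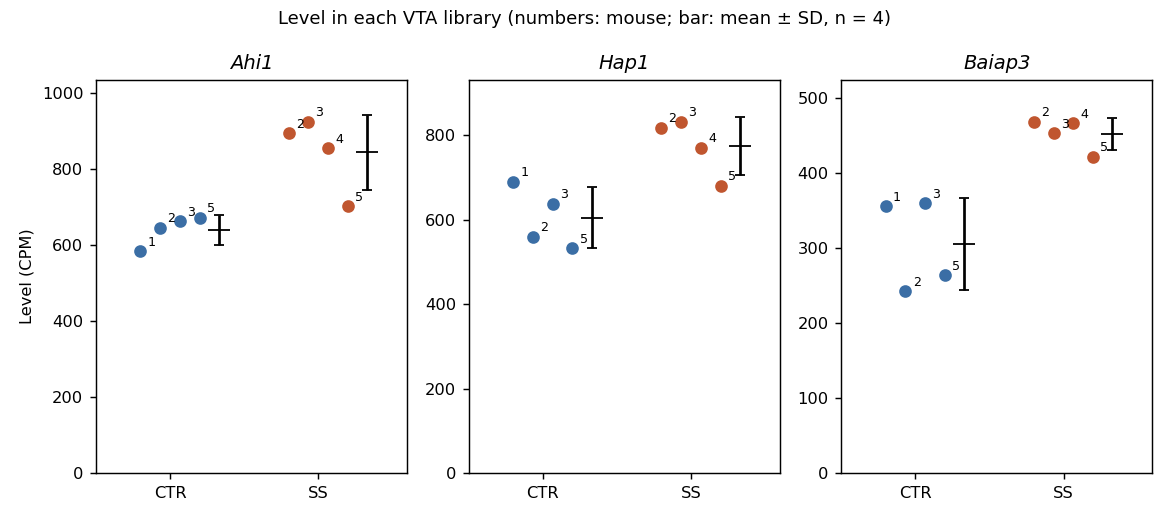
Level of Ahi1, Hap1 and Baiap3 in each of the 8 libraries, in CPM on a linear axis that starts at 0, with 1 point per mouse and the mean ± SD of the 4 CTR and the 4 SS libraries. The SS points of Ahi1 (703 to 925 CPM) and Baiap3 (422 to 468 CPM) all lie above the CTR points, and for Hap1 SS-5 (680 CPM) lies below CTR-1 (690 CPM).

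The differences were modest in size among all genes. Of the 16538 genes tested, 2135 had a higher log2 fold change than Ahi1, 2416 than Hap1 and 1382 than Baiap3, and the median over all genes was 0.0037. Ahi1 and Baiap3, 2 of the 3 members, had no overlap between the groups, and 2.47% of all tested genes had every SS library above every CTR library. The quasi-likelihood test of edgeR called 0.0847% of the tested genes at an adjusted p under 0.05 and called 0 higher in SS (0%), so that it called 0 of the 3 members, while 471 genes had an unadjusted p under 0.05 and a higher level in SS (2.85%). DESeq2 called 0.419% of its genes in either direction, 21 of them higher, with Ahi1 and Baiap3 among them, and limma voom called 0.103% and 0 of the members. The members were chosen on this contrast, so these counts describe the choice and carry no weight as a test.

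Counting error was small beside the spread between mice. The lowest count of a member was 5996, for Baiap3 in CTR-2, and counting error alone gave a coefficient of variation of at most 0.941% for Ahi1, 0.865% for Hap1 and 1.29% for Baiap3, which covers counting error only. The coefficients of variation between mice were 6.20% in CTR and 11.7% in SS for Ahi1, 11.9% and 8.85% for Hap1, and 19.99% and 4.75% for Baiap3. On the log2 scale, the pooled SD within groups was 0.14 for Ahi1, 0.15 for Hap1 and 0.21 for Baiap3.

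The direction held for the 3 members in each of the 17 alternative analyses. All of them reuse the libraries in which the members were chosen as higher in SS. The kept sign therefore describes the processing only and carries no weight as a test. Leaving out each library in turn gave log2 fold changes from 0.35 to 0.48 for Ahi1, from 0.30 to 0.43 for Hap1 and from 0.47 to 0.65 for Baiap3. In the 6 libraries with Y-linked transcripts, without CTR-5 and SS-5, the values were 0.50 for Ahi1, 0.36 for Hap1 and 0.54 for Baiap3. Without CTR-1 and CTR-2, the libraries with the most undetected genes, they were 0.34, 0.41 and 0.54. Among single libraries, leaving out SS-5, which held the least Ahi1 RNA of its group, moved the value of Ahi1 the most.

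**Figure D2:**
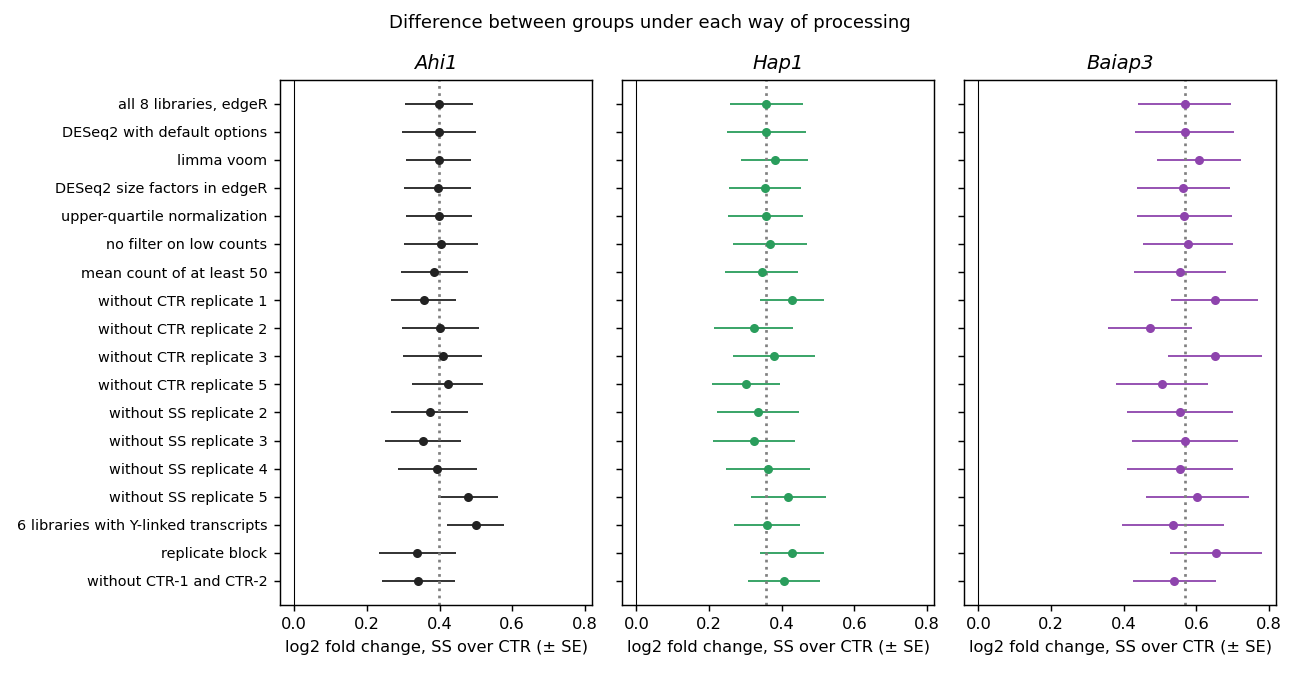
Log2 fold change of SS against CTR for Ahi1, Hap1 and Baiap3 in the main analysis and in the alternatives, with each point a separate fit, horizontal bars for ± SE, a dotted line at the main value and the horizontal axis in log2 units. Values stay between 0.34 and 0.50 for Ahi1, 0.30 and 0.43 for Hap1, and 0.47 and 0.65 for Baiap3.

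The proportions among the 3 transcripts were compared next, per kilobase of exon. Ahi1 and Hap1, whose products bind each other, stood at a ratio of 0.575 ± 0.0951 in CTR and 0.582 ± 0.0198 in SS (SD, n = 4 each). The ratio of Ahi1 to Hap1 ranged from 0.452 in CTR-1 to 0.674 in CTR-5 among controls and from 0.553 to 0.595 among SS libraries, so the SS values fell inside the CTR range. The ratio of Baiap3 to Hap1 was 0.370 ± 0.0399 in CTR and 0.431 ± 0.0249 in SS, with overlap between the highest control at 0.415 and the lowest SS library at 0.401. The ratio of Baiap3 to Ahi1 spanned 0.517 to 0.839 in CTR and 0.675 to 0.827 in SS, again inside the CTR range. The 3 proportions varied over a narrower range among the SS mice than among the CTR mice, and the difference in spread was not tested.

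Within the groups the 3 genes did not deviate in the same direction in every library, and 8 libraries are too few to tell whether they vary together. CTR-1, the library with the most undetected genes, had the most Hap1 and the least Ahi1 of the controls. Its deviations from the control mean were 0.20 for Hap1 and −0.13 for Ahi1 on the log2 scale, and its Baiap3 deviation was 0.24. In CTR-5 the order was turned, with deviations of 0.07 for Ahi1, −0.18 for Hap1 and −0.19 for Baiap3. Among the SS libraries Ahi1 and Hap1 had the same order, from SS-3 through SS-2 and SS-4 to SS-5, and SS-5 was lowest for the 3 genes, with deviations of −0.26, −0.18 and −0.10.

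After subtraction of group means, the deviations of Hap1 and Baiap3 had a Pearson r of 0.81 over the 8 libraries (exact permutation p within groups 0.066, adjusted over the 3 pairs 0.20) and a Spearman rho of 0.71 (exact permutation p 0.14, adjusted 0.41). Without SS-5 and CTR-5, the libraries farthest from the median of Hap1, r was 0.84, and leaving out each library in turn gave 0.72 to 0.85. Ahi1 and Hap1 had an r of 0.26 (exact permutation p 0.51, adjusted 0.76) and a rho of 0.31 (exact permutation p 0.50, adjusted 0.74), and r was 0.51 without SS-5 and CTR-1. The value for this pair rested on single libraries, being 0.75 without CTR-1 and −0.55 without SS-5. Ahi1 and Baiap3 had an r of −0.025 (exact permutation p 0.94, adjusted 0.94) and a rho of 0.095 (exact permutation p 0.80, adjusted 0.80), with an r of 0.24 without SS-5 and CTR-1 and −0.46 to 0.28 when single libraries were left out. Thus 0 of the 3 pairs passed the two-sided exact permutation test. The r of Hap1 and Baiap3 stayed high in each subset, but the subsets share most of their libraries and are no separate evidence.

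**Figure D3:**
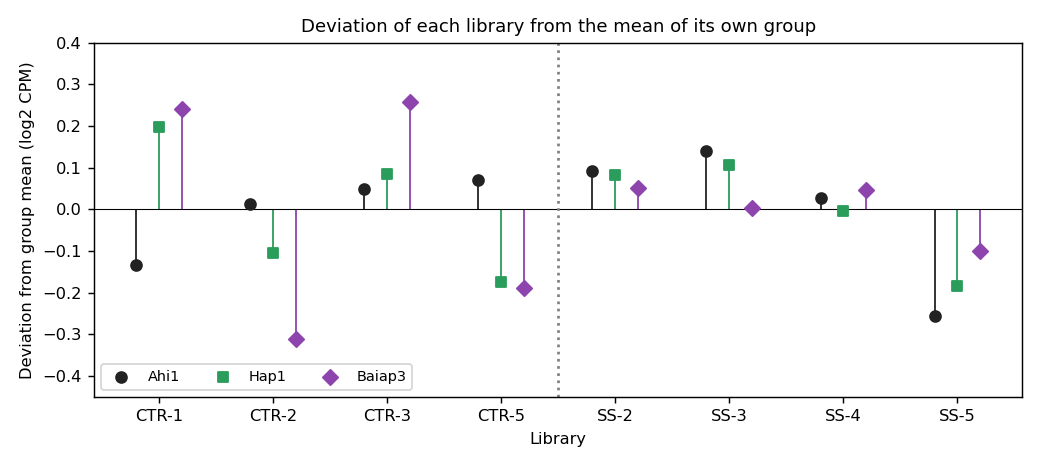
Deviation of each of the 8 libraries from the mean of its own group, in log2 CPM on the vertical axis, with 1 marker per gene and library and a dotted line between CTR and SS. Hap1 and Baiap3 lie on the same side of 0 in 7 of the 8 libraries (all but SS-4, where Hap1 is at −0.0046), while Ahi1 lies opposite to both in CTR-1, CTR-2 and CTR-5.

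Set among all tested genes, Baiap3 took place 264 of 16537 by its within-group r to Hap1, and 1.59% of genes were more like Hap1. Hap1 took place 462 for Baiap3 (2.79%), but only place 5542 for Ahi1 (33.5%), and Baiap3 took place 9111 for Ahi1 (55.1%). Over all 8 libraries without subtraction, where the group difference used for the choice contributes, r was 0.94 for Hap1 and Baiap3, 0.77 for Ahi1 and Hap1 and 0.71 for Ahi1 and Baiap3. The genes most like Ahi1 over the 8 libraries were Rnd3 (r = 0.97), Ptprt (0.95) and Immt (0.95). Those most like Hap1 were Esyt3 (0.96), Zfand4 (0.95) and Pax6 (0.94), a transcription factor of the developing brain, and those most like Baiap3 were Apbb1ip (0.97), Ltbp3 (0.96) and Nek10 (0.96). Within groups the most alike genes were Syde2 (0.98), Xkrx (0.97) and Gm13112 (0.97) for Ahi1, Sephs2 (0.98), Fabp7 (0.96) and Fto (0.95) for Hap1, and Mavs (0.99), Prkcq (0.98) and Psma7 (0.98) for Baiap3. These 18 genes were the highest of 16537 values per member over only 8 libraries. Those libraries differed in total counts (20036086 in CTR-1 to 47319997 in SS-3) and in undetected genes (1 of 1989 in CTR-5 to 434 in CTR-1). The part of such differences in r was not tested. With both ways of comparing no gene was named for more than 1 member.

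Levels of cell type markers are given beside the members, because some of them also differed between the groups. In bulk tissue fewer cells of a type and less RNA per cell cannot be told apart. In all, 10 genes of neurons in general had a summed level of 6025 to 6745 CPM in CTR and 5501 to 5757 CPM in SS, with 9 of 10 lower in SS and 0 called by edgeR, DESeq2 or limma voom (5 lower at an unadjusted p under 0.05, against 3.7% of all tested genes). Uchl1, the most abundant of them per length, had a log2 fold change of −0.29 (SE 0.13). As a percentage of that sum, Ahi1 stood at 8.65% to 11.2% in CTR and 12.8% to 16.4% in SS, Hap1 at 8.77% to 10.3% and 12.4% to 14.8%, and Baiap3 at 3.801% to 5.83% and 7.66% to 8.48%. Relative to the neuron markers the 3 members had no overlap between the groups, although Hap1 overlapped in plain CPM. The denominator was itself lower in every SS library than in every CTR library, so dividing by it raises any gene in SS relative to CTR. The share of all tested genes without overlap by this measure was not computed, so the separation is not a result about the members.

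Hap1 is prominent in the hypothalamus, which borders the VTA, so markers of the hypothalamus and mammillary region were read in every library. Of the 15 listed, 8 passed the filter on low counts, 7 of them with a higher and 1 with a lower mean in SS, and Nr5a1 and Avp had 0 counts in every library. The summed level of the 15 was 74.5 to 144 CPM in CTR and 139 to 175 CPM in SS, with CTR-2 at 144 inside the SS range. Among the controls the marker sum was 144 CPM in CTR-2, 101.9 in CTR-1, 98.4 in CTR-3 and 74.5 in CTR-5. Pmch, which encodes melanin-concentrating hormone, averaged 6.36 ± 7.40 CPM among controls and 37.4 ± 8.68 CPM among stressed mice (SD, n = 4 each). Its log2 fold change of 2.54 (SE 0.74) did not pass (edgeR adjusted p = 0.61). Otp, a transcription factor of neuroendocrine hypothalamus, was the other marker with an unadjusted p under 0.05, at a log2 fold change of 2.72 (SE 0.87). Thus 2 of the 8 tested markers were higher at that threshold, against 2.85% of all tested genes. Of the 10 dopamine neuron markers, 9 were lower in SS and 5 passed the edgeR test, against 0.0847% of all tested genes. Slc6a3, the dopamine transporter gene, had 448 CPM in CTR and 6.19 in SS. The hypothalamic and the dopamine neuron markers differed between the groups along with the members, and their part in the result was not tested.

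The other 7 marker lists overlapped between the groups in summed level. All 7 oligodendrocyte and all 7 microglia genes had lower means in SS and all 4 GABA neuron genes higher means. The remaining lists held genes of both directions. Summed levels in CTR and SS were 910 to 1084 and 1015 to 1165 CPM for 4 GABA neuron genes, 358 to 782 and 454 to 509 CPM for 3 glutamate neuron genes, and 12.2 to 17.8 and 11.3 to 17.0 CPM for 8 genes of ependymal and multiciliated cells, in which Tmem212 had 0 counts throughout. They were 3405 to 4060 and 3281 to 3830 CPM for astrocytes, 22447 to 31817 and 25556 to 28348 CPM for oligodendrocytes, 179 to 253 and 176 to 195 CPM for microglia, and 213 to 267 and 223 to 273 CPM for endothelial cells. All 7 had 0 genes called by edgeR, DESeq2 or limma voom, with 2 genes lower in SS at an unadjusted p under 0.05, namely Slc17a7, a vesicular glutamate transporter gene (log2 fold change −2.16), and the microglial receptor gene Cx3cr1 (−0.28). Slc17a6, Foxj1, Aldoc, C1qa and Cldn5, the most abundant genes per length of 5 of these lists, had log2 fold changes between −0.35 for C1qa and 0.24 for Cldn5.

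**Figure D4:**
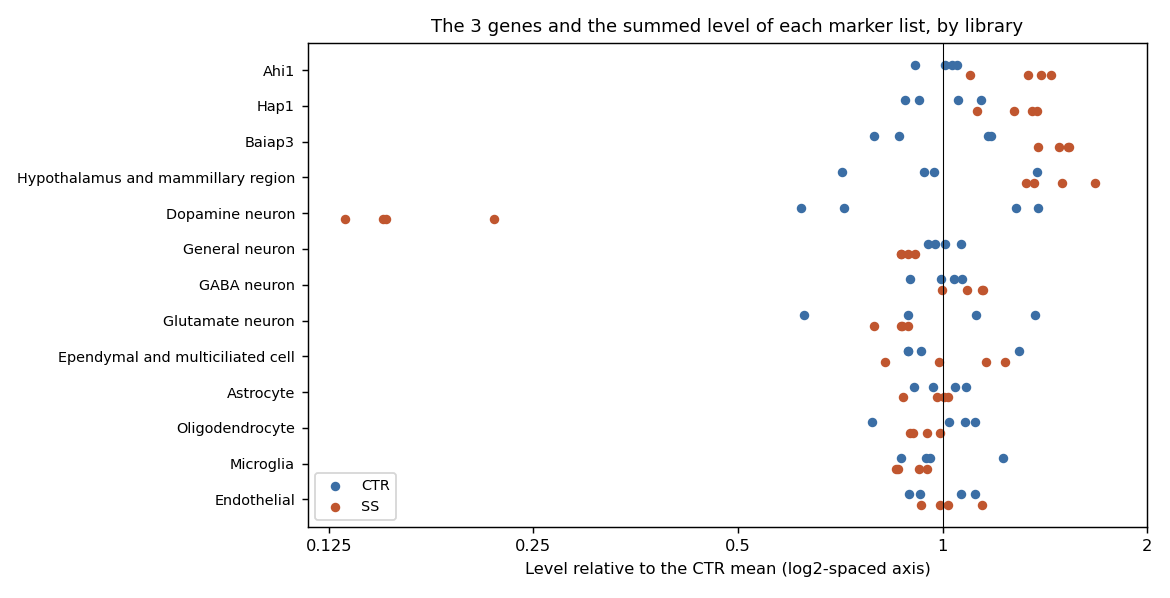
Summed CPM of marker lists and CPM of the 3 members in each library, relative to the mean of the 4 CTR libraries, with 1 point per library and the axis on a log scale. The dopamine neuron markers of SS lie at 0.132 to 0.219 of the CTR mean, the hypothalamus and mammillary markers at 1.33 to 1.67, and CTR-2 reaches 1.38.

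Transcripts of proteins that work with Hap1 and Ahi1 were examined to see whether the partners differed as well. Among 20 genes for huntingtin, motor, dynactin, cargo and other partners, 10 had higher and 10 lower means in SS. Their median log2 fold change was 0.0040, against 0.0037 over all genes. The edgeR test called 0 of the 20 genes, as did DESeq2 and limma voom, and 1 gene had an unadjusted p under 0.05, against 6.55% of all tested genes. That gene was Tbp, the TATA-binding protein, at a log2 fold change of 0.58 (SE 0.21, edgeR adjusted p = 0.75). Kif5a, a neuronal kinesin heavy chain and the most abundant of the list per length, averaged 2505 CPM in controls and 2796 in stressed mice, a log2 fold change of 0.16 (SE 0.094, edgeR adjusted p = 0.77).

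The other 7 partners chosen by name were read next. Htt, the huntingtin gene, had a log2 fold change of 0.21 (SE 0.15) and Pcm1, a centriolar satellite scaffold, one of 0.25 (SE 0.19). Ntrk2, the receptor of brain-derived neurotrophic factor whose traffic depends on Hap1, stood at 0.10 (SE 0.11), the dynactin subunit gene Dctn1 at 0.05 (SE 0.076) and the kinesin light chain gene Klc1 at −0.10 (SE 0.075). The mitochondrial transport adaptors Trak1 and Trak2, which share a domain with Hap1, stood at −0.16 (SE 0.12) and −0.10 (SE 0.15). The edgeR adjusted p of these 7 genes was between 0.81 and 0.92.

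Ahi1 was next set beside 30 genes of Joubert syndrome and of the ciliary transition zone, the gate at the base of the cilium where jouberin sits. Of these, 18 had higher and 12 lower means in SS. The median was 0.054 on the log2 scale and 0 genes were called by edgeR, DESeq2 or limma voom. At an unadjusted p under 0.05, 2 genes had higher and 1 a lower level in SS, that is 3 of 30, against 6.55% of all tested genes. They were Tctn3 at 0.69 (SE 0.20, edgeR adjusted p = 0.63), Cc2d2a at 0.73 (SE 0.29) and Tmem216 at −0.78 (SE 0.30), the latter pair at an edgeR adjusted p of 0.75. All 3 encode transition zone proteins. Pde6d, which carries prenylated proteins to the cilium, was the most abundant of the list per length and had a log2 fold change of −0.14 (SE 0.15, edgeR adjusted p = 0.89).

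Baiap3 was compared with its relatives, the Munc13 and CAPS families that prime synaptic and dense-core vesicles. Unc13c, a Munc13 gene, measured 95.6, 123, 142 and 136 CPM in CTR libraries 1, 2, 3 and 5, and 161, 198, 204 and 170 CPM in SS libraries 2, 3, 4 and 5. All SS libraries lay above all CTR libraries, with means of 124 ± 20.8 and 183 ± 20.8 CPM (SD, n = 4 each) and a log2 fold change of 0.56 (SE 0.13, edgeR adjusted p = 0.42). Cadps2, which encodes a priming factor of dense-core vesicles, measured 86.4, 66.5, 52.6 and 110 CPM in CTR libraries 1, 2, 3 and 5, and 34.0, 40.1, 23.0 and 26.3 CPM in SS libraries 2, 3, 4 and 5. Its SS libraries all lay below the controls, with means of 78.9 ± 24.99 and 30.8 ± 7.69 CPM (SD, n = 4 each) and a log2 fold change of −1.35 (SE 0.23, edgeR adjusted p = 0.072). The log2 fold change of Baiap3 was thus close to that of Unc13c and opposite in sign to that of Cadps2. DESeq2 called both genes, with an adjusted p of 0.025 for Unc13c and 1.6e-05 for Cadps2, and edgeR called Cadps2 with no filter on low counts, with a mean count of at least 50 and without CTR-3.

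The remaining relatives differed less from 0 than their SE or were measured on few counts. Unc13a, the main Munc13 of excitatory synapses, averaged 174 CPM in controls and 170 in stressed mice, a log2 fold change of −0.03 (SE 0.15), and the values were 0.05 (SE 0.21) for Unc13b and 0.10 (SE 0.11) for Cadps. Unc13d had 1 to 39 counts per library and a log2 fold change of 0.31 with an SE of 1.10. Snap25, a SNARE protein of the release machinery, averaged 2007 CPM in controls and 1559 in stressed mice, a log2 fold change of −0.36 (SE 0.077, edgeR adjusted p = 0.24), and was called by DESeq2. Vamp2, the SNARE of the vesicle, stood at −0.26 (SE 0.10, edgeR adjusted p = 0.75). Over the 13 genes, 5 had higher and 8 lower means in SS, the median log2 fold change was −0.032, and edgeR and limma voom called 0. At an unadjusted p under 0.05, Unc13c was higher and Cadps2, Snap25, Vamp2 and Rims1 were lower in SS, where 3.7% of all tested genes were lower. In this list 3 genes (Cadps2, Snap25 and Rims1) had every SS library below every CTR library, against 2.21% of all tested genes.

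The dense-core vesicle is the organelle whose traffic involves Baiap3, and genes for its cargo, membrane and trafficking factors were read as the last list. Of 26 genes, 8 had higher and 18 lower means in SS. The median log2 fold change was −0.063, with a range of −0.35 to 0.28. The count called was 0 by edgeR, DESeq2 and limma voom, and 3 genes were lower at an unadjusted p under 0.05, against 3.7% of all tested genes. These were Chgb, encoding chromogranin B, at −0.35 (SE 0.12, edgeR adjusted p = 0.74), Cpe, encoding the prohormone-processing carboxypeptidase E, at −0.20 (SE 0.075) and Scg5, encoding a chaperone of prohormone convertase, at −0.28 (SE 0.13), both at an edgeR adjusted p of 0.75. No gene of this list reached the log2 fold change of Baiap3 in either direction. Baiap3 was chosen as higher in SS in these same libraries, so this comparison carries no weight as a test.

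**Figure D5:**
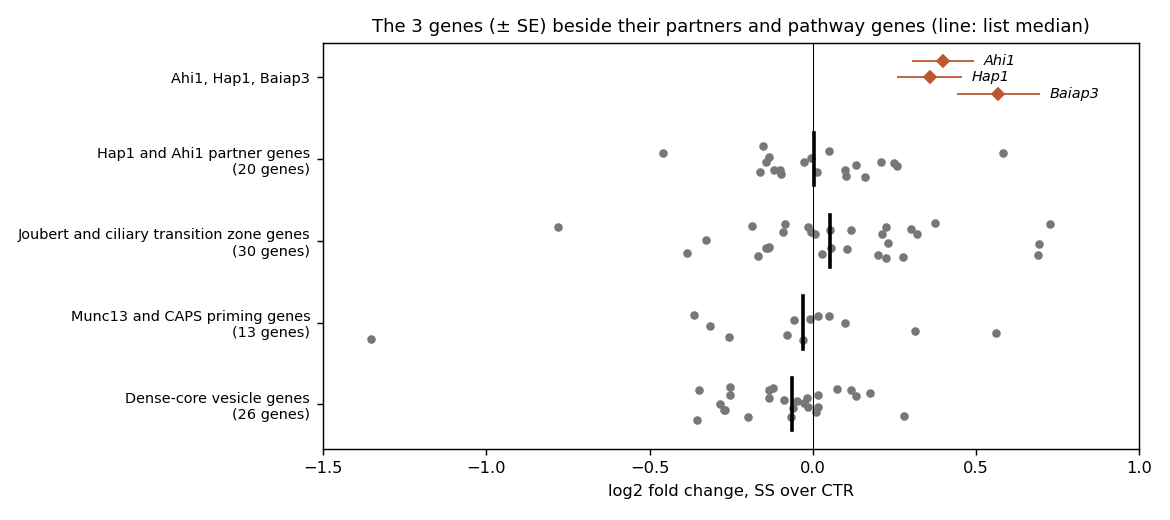
Log2 fold change of SS against CTR for each gene of the 4 lists around the members, with 1 point per gene, a thick line at each list's median and the members drawn above with bars for ± SE. The medians lie at 0.0040 for the Hap1 and Ahi1 partners, 0.054 for the Joubert and transition zone genes, −0.032 for the Munc13 and CAPS genes and −0.063 for the dense-core vesicle genes. Single genes of the lists reach from −1.35 for Cadps2 to 0.73 for Cc2d2a, and the members lie at 0.40 (Ahi1), 0.36 (Hap1) and 0.57 (Baiap3).

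Genes next to or inside the members were read because shared exonic bases could affect the counts, and no source used here gives the strand setting. In GENCODE M21, Tsr3 was the only one of these genes to share exonic bases with a member. Tsr3 lies on the strand opposite to Baiap3 and overlaps 140 of its exonic bases, and it had 232 to 624 counts per library, a small number beside those of Baiap3. Inside Ahi1, Gm10826 and Gm20149 had 0 counts in every library, as had Mir3547 inside Baiap3, and Gm20394, on the same strand within Hap1, had 7 to 68 counts per library. The neighbours had log2 fold changes of 0.03 (SE 0.36) for Pde7b and −0.60 (SE 1.11) for Myb beside Ahi1, of 0.00 (SE 0.12) for Jup beside Hap1, and of −0.10 (SE 0.36) for Tsr3 beside Baiap3. Myb had 0 to 65 counts per library, and Gast, the other neighbour of Hap1, had 2 counts in all. For these 4 tested neighbours, edgeR and DESeq2 called 0, and 0 had an unadjusted p under 0.05.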

How the data were processed

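Bilateral VTA punches of 4 CTR and 4 SS mice were sequenced as 1 library per mouse. After quality control with FastQC and trimming with cutadapt, the authors mapped the reads to mm10 using STAR, and HTSeq assigned them to genes of an Ensembl annotation. Whole read counts per gene were deposited by the authors, with no normalization. Tool versions and the strand setting are not given in the sources used here. Groups and numbers were taken from the labels. The series text speaks of more mice per group than the 4 analysed here.

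Counts were analysed in R 4.3.3 with edgeR 4.0.16. Genes were kept with filterByExpr (minimum count 10, minimum total count 15), libraries were normalized with TMM, and SS was compared with CTR by the quasi-likelihood test over 16538 genes with group as the sole term and a Benjamini-Hochberg threshold of 0.05 (biological coefficient of variation 0.384). CPM values use the TMM library size and log2 CPM a prior count of 2. The SE of an edgeR log2 fold change is its absolute value divided by the square root of the quasi-likelihood F statistic. For the members this SE therefore restates the contrast on which they were chosen and carries no weight as a test. DESeq2 1.42.0 and limma voom 3.58.1 were alternatives, beside 2 other normalizations, no filter, a mean count of at least 50, each library left out in turn, the 6 libraries with Y-linked transcripts and the replicate number as a block. The fit without CTR-1 and CTR-2 and the permutation p of the within-group correlations (576 exact permutations) were chosen after seeing the data. The scripts were tested on simulated data.

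The 3 members, the lists and the tests were chosen with earlier results of these data known. The lists hold partners of Hap1 and Ahi1, Joubert and transition zone genes, Munc13 and CAPS genes, dense-core vesicle genes and markers of 10 cell types or regions. Named genes are the members, the 3 most alike genes per member with and without group means, the nearest protein-coding neighbours, 8 partners, 6 paralogs, and in each pathway list the most abundant gene per length and up to 3 with the smallest unadjusted p, and in each marker list the most abundant gene. Rims1, Slc17a7, Cx3cr1, Otp, Nr5a1, Avp, Tmem212, the genes inside members and those in the flagged results outside this rule were named after their values were seen. A few genes under this rule are not reported here. Positions are from GENCODE M21, in which 54070 of the 54735 symbols had a unique match, and promoters from RefSeq on GRCm38.p6. Counting intervals cover counting error only.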

Additional observations from a re-analysis of the deposited data

Results flagged for a closer look

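Within each group of 4 libraries, the distance from the highest or lowest library to the next was taken as a share of the whole range and set against Dixon's 95% critical value for 4 samples. Of 118 groups over 59 genes, 6 passed, where chance flags about 1 in 20 groups, or 5.9 here, and 0 of them belonged to Ahi1, Hap1 or Baiap3. Cadps had a ratio of 0.9753 in CTR, with CTR-1 lowest at 239 CPM and the next library at 334 CPM. Tsr3, which overlaps Baiap3, had a ratio of 0.892 in CTR, with CTR-1 highest at 32.2 CPM against 11.8 CPM. Among SS libraries SS-5 stood apart for Ntrk2 (ratio 0.867, lowest at 673 CPM against 709 CPM), for Pmch (0.877, highest at 50.3 CPM against 34.3 CPM) and for the astrocyte gene Aldoc (0.854, lowest at 810 CPM against 972 CPM). Cc2d2a had a ratio of 0.861 in SS, with SS-4 highest at 31.6 CPM against 23.3 CPM. For the members the ratios in CTR and SS were 0.704 and 0.688 for Ahi1, 0.332 and 0.594 for Hap1, and 0.183 and 0.676 for Baiap3.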

How the results depend on the processing

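The log2 fold changes of Ahi1, Hap1 and Baiap3 kept their sign in the 17 alternatives and moved by less than the spread between replicates. The alternatives reuse the libraries in which the members were chosen, so the kept sign is no test of the difference. The count of genes called, 14 in the main analysis, was 81 with DESeq2, 22 with no filter on low counts, 22 with a mean count of at least 50, 9 in the 6 libraries with Y-linked transcripts, and 6 (without SS-4) to 19 (without CTR-2) when each library was left out in turn. Leaving out SS-2, SS-3 or SS-5 gave 8, 7 and 9. Of the 13 Munc13 and CAPS genes, 0 in the main analysis, 3 were called with DESeq2 (Cadps2, Snap25 and Unc13c), and 1 (Cadps2) with no filter and with a mean count of at least 50. Leaving out each library gave 0 to 1, with Cadps2 called without CTR-3. The cause of these changes was not tested. The numbers 2, 3 and 5 occur in both groups, and with the replicate block the count was 9 and the log2 fold changes were 0.34 for Ahi1, 0.43 for Hap1 and 0.65 for Baiap3. Same-numbered libraries had correlations of deviations of −0.0062, −0.0077 and 0.060. These values cannot show whether such libraries share a litter or a batch, which the labels do not give. CTR-5 and SS-5 also had Xist in common (14997 and 6551 counts). For the fold changes and the counts, 123 alternative values gave the same result, 7 counts went up and 6 went down past the margin allowed for a count, and 0 reversed. The within-group correlations changed sign in 6 of 36 alternatives. For Ahi1 and Hap1 (main r 0.26), r was −0.41 in the 6 libraries with Y-linked transcripts and −0.55 to 0.75 when each library was left out. For Ahi1 and Baiap3 (main r −0.025), the Spearman rho was 0.095 and leaving out each library gave −0.46 to 0.28. For Hap1 and Baiap3 the sign held.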
